A study of Homo sapiens with 8 samples.

Results

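The comparison described here sets cells that received rosiglitazone and carboplatin together (combination) against cells that received the control treatment (control). The cells were a human non-small cell lung adenocarcinoma line that the labels do not name, and RNA was taken after 24 h. The 4 arrays of the comparison are the 2 whose titles give both drugs and the 2 whose titles give control treatment, out of 8 arrays in the series. The other 4 were 2 arrays of rosiglitazone alone (1 µM) and 2 of carboplatin alone (10 µM). The labels do not restate either dose for the combination, and they describe the control once as medium and once as DMSO/control. All groups were grown in DMEM with serum and changed to fresh medium at treatment. The labels give no genotype, and they leave out whether a group's 2 arrays stem from cultures of their own, so each p-value reflects the spread among arrays alone and that spread may be technical.

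Rosiglitazone is a ligand of PPARγ, a nuclear receptor that pairs with RXR and switches on genes of lipid uptake, storage and oxidation. Carboplatin forms platinum adducts and crosslinks in DNA, and cells with functional p53 answer such damage by raising p53 target genes that halt the cell cycle, repair DNA or promote cell death. Metallothioneins are small cysteine-rich proteins that bind zinc, copper and also platinum, and they have been studied as a source of resistance to platinum drugs.

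Each value below is a normalized log2(signal + 16) of a probe set, the group of probes by which an Affymetrix expression array reads a transcript, and each difference is combination minus control on that scale with the standard error (SE) from limma. On this scale a dim probe set shows a smaller change than its RNA. The keratin genes KRT7, KRT8 and KRT18, which encode filaments of epithelial cells, were bright in the combination (11.24 to 12.26) and in control (10.84 to 12.51). The lung adenocarcinoma marker NKX2-1 and the epithelial marker EPCAM were below the filter on dim probe sets, and NAPSA and SFTPA1 had no probe set of their own in the annotation used. Of the marker genes of other cell types, 0 of 4 for adipocytes, 0 of 3 for endothelial cells, 1 of the 4 blood cell genes with a probe set and 2 of 5 for fibroblasts were above the filter, and the adipocyte markers averaged 4.50 to 4.51 in combination arrays and 4.52 to 4.64 in control arrays, near the floor of the scale. As deposited, the median signal was 37.3 and 52.2 in the combination arrays and 45.8 and 36.2 in the control arrays, so brightness did not separate the groups. Arrays of all cells together cannot tell fewer cells of a kind from less RNA per cell. Exact permutation of 2 arrays against 2 cannot give a two-sided p below 0.333, so only the model fitted across all probe sets was used for tests.

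The combination changed 30 of the 13329 probe sets tested (0.225%, limma with Benjamini-Hochberg adjusted p below 0.05), 22 of them higher (0.165%) and 8 lower (0.0600%). With the arrays as deposited and no further scaling the split was 15 higher and 1 lower. Of the 30, 28 could be named and stood for 28 genes, 20 higher and 8 lower. In all 28 the combination arrays lay wholly above or wholly below the control arrays, which also held for 16.5% (above) and 21.6% (below) of the 8014 genes tested. The median difference over all genes was -0.02, with 30 genes higher and 15 lower by at least 1. Leaving out 1 array of the comparison gave 9 to 12 called probe sets. Over 19 alternative settings ANGPTL4, DLC1 and PLIN2 passed in 19, FA2H in 18, COL6A1 and CDKN1A in 17, and AQP3 in 17 of the 18 in which it was tested. Each of the other called genes passed in 5 (SFN) to 14 (ERF and HMOX1) of the 19. By size, the rises began with ANGPTL4, AQP3, DLC1 and PLIN2, and the falls with CXCL8, CSGALNACT1, RGS2 and MT1X.

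**Figure D1:**
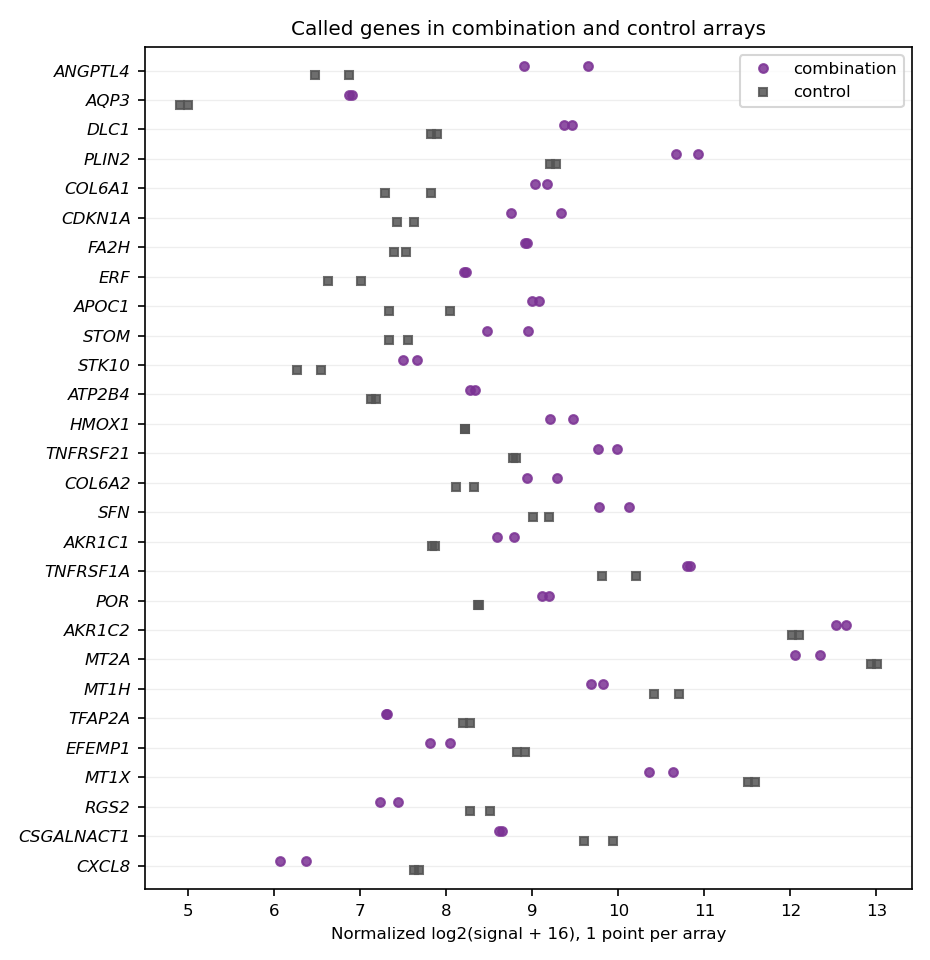
Normalized log2(signal + 16) of the 28 called genes in each combination array (circles) and each control array (squares), ordered by the size of the difference. For 20 genes both combination arrays lie to the right of both control arrays, and for 8 genes to the left.

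PPAR target genes held more called rises than any other list examined. The lists and their members were chosen with earlier results of these data known, so this ranking and the counts below are not independent support. Of 42 listed targets 27 were tested, 22 were higher and 5 lower, and 4 passed the threshold, all as rises. By gene, 0.175% of all genes tested passed as rises. The median difference of the 27 was 0.46, against -0.02 for all genes, and 15 of the 27 were higher at an unadjusted p below 0.05, against 4.44% of all genes. The genes are taken here by role.

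For lipoprotein handling, ANGPTL4, a secreted inhibitor of lipoprotein lipase, read 9.65 and 8.91 in the combination arrays against 6.48 and 6.87 in control. The groups were far apart, and ANGPTL4 rose by 2.61 ± 0.23 (fold change 6.09, adjusted p = 0.000860, limma), the largest difference among the called genes. The apolipoprotein gene APOC1 read 9.08 and 8.99 in the combination and 7.34 and 8.04 in control and rose by 1.34 ± 0.23 (adjusted p = 0.0439, limma). Its control arrays differed by more than its combination arrays, and its second probe set did not pass (0.54 ± 0.19). The lipoprotein receptor gene VLDLR (0.36 ± 0.17) and the apolipoprotein gene APOE (0.36 ± 0.25) were not past the threshold.

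For lipid storage, PLIN2, a coat protein of lipid droplets, read 10.93 and 10.67 with both drugs against 9.21 and 9.28 without, a rise of 1.56 ± 0.12 (adjusted p = 0.000510, limma). Every combination array was above every control array by more than 1 unit. The fatty acid carrier FABP5 (0.48 ± 0.14) did not pass, and the droplet protein PLIN3 differed by 0.00 ± 0.15. In glycerol handling AQP3, a channel for water and glycerol, read 6.87 and 6.91 in the combination and 4.91 and 4.999 in control, a rise of 1.94 ± 0.21 (adjusted p = 0.00441, limma). Its control arrays, with deposited signals of 14.4 and 13.8, were below the lowest mean that passed the filter (5.38), so AQP3 was tested only through the arrays where it was high, and its count among the 4 rises is no support for the list. Its difference was 2.70 with a pseudocount of 1 and 1.08 with 64. A second AQP3 probe set differed by 0.40 ± 0.26 and did not pass.

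For fatty acid oxidation 14 genes were tested, 10 were higher and 0 passed. At an unadjusted p below 0.05, 9 were higher, against 4.44% of all genes. PDK4, a kinase that holds back pyruvate oxidation, read 6.22 and 7.06 in the combination and 5.14 and 5.15 in control (1.49 ± 0.31, adjusted p = 0.089, limma). The groups did not overlap, but the combination arrays of PDK4 differed by 0.84 from each other. As with AQP3, its control arrays were below the lowest mean that passed the filter (5.38). PDK4 was thus tested only through arrays where it was high, and its place among the higher genes is no support for the list. Catalase, from CAT, read 9.82 and 10.12 in the combination against 9.14 and 9.21 in control (0.80 ± 0.15, adjusted p = 0.069, limma). The thiolase ACAA2 (0.91 ± 0.20), the isomerase ECH1 (0.73 ± 0.13) and the carnitine transferase CPT1A (0.46 ± 0.13) also had adjusted p-values above the threshold. The receptor gene itself, PPARG, read 7.84 and 7.97 in the combination and 8.30 and 8.16 in control (-0.32 ± 0.15), which did not pass, and 0 of the 9 tested genes of receptors and coregulators did by limma (0 at an unadjusted p below 0.05).

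FA2H, which adds a hydroxyl group to fatty acids of sphingolipids, read 8.91 and 8.94 in the combination and 7.39 and 7.54 in control and rose by 1.46 ± 0.14 (adjusted p = 0.00154, limma). It was the only gene that passed among the 12 tested of a sphingolipid enzyme list, where 0.175% of all genes passed as rises. The median of that list was 0.02. Genes of lipid synthesis were mostly higher without passing. All 11 tested genes of fatty acid synthesis were higher with a median of 0.25, and 17 of 19 genes of sterol synthesis were higher with a median of 0.16, where 46.1% of all genes were higher. ACLY, which makes cytosolic acetyl-CoA, read 11.38 and 11.76 in the combination and 11.04 and 10.62 in control (0.74 ± 0.17, adjusted p = 0.152, limma). The sterol regulator SREBF2 (0.68 ± 0.21), the mevalonate enzyme MVD (0.69 ± 0.25) and the desaturase FADS2 (1.06 ± 0.48) were higher with larger errors.

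HMOX1, heme oxygenase, read 9.47 and 9.21 in the combination arrays and 8.22 in each control array and rose by 1.12 ± 0.14 (adjusted p = 0.00742, limma). POR, the reductase that feeds electrons to cytochrome P450 enzymes, read 9.20 and 9.11 in the combination and 8.38 and 8.37 in control (0.78 ± 0.13, adjusted p = 0.0362). For both genes the control arrays were almost equal. The combination arrays stood wholly above them, as in 16.5% of all genes tested. The aldo-keto reductase genes AKR1C1 (0.84 ± 0.14, adjusted p = 0.0468) and AKR1C2 (0.53 ± 0.08, adjusted p = 0.0310) each passed by 1 probe set, while their brightest probe sets differed by 0.31 ± 0.07 and 0.30 ± 0.08 and did not pass. These paralogs are nearly identical, so which of them a probe set reads is uncertain. HMOX1 was the 1 gene past the threshold among the brightest probe sets of 34 NRF2 and antioxidant genes. By gene, 0.175% of all genes tested passed as rises. Of the 34 genes 22 were higher and 12 lower with a median of 0.04. NQO1, a quinone reductase that NRF2 controls (0.04 ± 0.09), and the thioredoxin reductase TXNRD1 (-0.06 ± 0.12) were close to 0.

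Receptors for death signals included 2 called rises. TNFRSF21, also called death receptor 6, read 9.77 and 9.98 in the combination and 8.78 and 8.81 in control and rose by 1.08 ± 0.14 (adjusted p = 0.00958, limma). TNFRSF1A, the main receptor of tumor necrosis factor, read 10.80 and 10.83 in the combination and 9.81 and 10.20 in control and rose by 0.81 ± 0.13 (adjusted p = 0.0408, limma). In both genes the combination arrays were wholly above the control arrays, as in 16.5% of all genes tested. TNFRSF10B, a TRAIL receptor (0.69 ± 0.15), and FAS (0.68 ± 0.27) did not pass. Of the 6 receptor and ligand genes tested 5 were higher and 2 passed, with a median of 0.68, where 46.1% of all genes were higher and 0.175% passed as rises. The BCL2 family genes had a median of 0.12 and caspases with their inhibitors one of 0.05, with 0 past the threshold in either.

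Other called rises were in genes of signalling, matrix and membrane. DLC1, known as a tumor suppressor gene, read 9.46 and 9.37 in the combination and 7.89 and 7.82 in control, and rose by 1.56 ± 0.13 (adjusted p = 0.000782, limma). STK10, a kinase that phosphorylates membrane linker proteins, rose by 1.17 ± 0.18 (adjusted p = 0.0287) on 1 of 2 probe sets. The brighter STK10 probe set did not pass. ATP2B4, a plasma membrane calcium pump, rose by 1.15 ± 0.14 (adjusted p = 0.00742) with 2 of its 3 probe sets higher. STOM, the membrane protein stomatin, rose by 1.26 ± 0.18 (adjusted p = 0.0275). The brighter STOM probe set did not pass (1.09 ± 0.19, adjusted p = 0.058, limma). COL6A1, a chain of collagen VI, read 9.17 and 9.03 in the combination and 7.83 and 7.29 in control (1.54 ± 0.18, adjusted p = 0.00576, limma). All 5 COL6A1 probe sets were higher and 1 passed. Its partner chain COL6A2 rose by 0.90 ± 0.15 (adjusted p = 0.0465, limma) on 1 of 2 probe sets. The other COL6A2 probe set differed in the opposite direction. Across 29 matrix and mesenchymal genes 13 were higher and 16 lower, so collagen VI stood within a list whose median was -0.09.

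Genes controlled by p53 were mostly higher, and 1 passed. Of 38 listed, 26 were tested, 21 were higher and 5 lower, and the median was 0.40. The gene CDKN1A was the 1 that passed by its brightest probe set, where 0.175% of all genes passed as rises, and 13 of the 26 were higher at an unadjusted p below 0.05, where 4.44% of all genes were. CDKN1A, the gene of p21, a brake on cyclin-dependent kinases, read 9.34 and 8.75 in the combination and 7.43 and 7.62 in control. The lower combination array was still above both control arrays, and CDKN1A rose by 1.52 ± 0.18 (fold change 2.86, adjusted p = 0.00742, limma). SFN, the 14-3-3 protein that holds cells at G2, rose by 0.85 ± 0.14 (adjusted p = 0.0413) on a probe set that read 10.13 and 9.78 in the combination and 9.01 and 9.19 in control. Its 3 probe sets were all higher, and the 2 brighter ones did not pass.

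Among p53 targets short of the threshold, the stress cytokine GDF15 read 8.11 and 8.17 in the combination and 7.26 and 7.29 in control (0.87 ± 0.16, adjusted p = 0.068, limma). PHLDA3, an inhibitor of AKT, read 8.83 and 8.56 in the combination and 7.79 and 7.72 in control (0.93 ± 0.17, adjusted p = 0.062, limma). Both genes missed the threshold narrowly. Their combination arrays were wholly above the control arrays, as in 16.5% of all genes tested. DDB2, which recognises damaged DNA for nucleotide excision repair (0.68 ± 0.17), and MDM2, which degrades p53 (0.72 ± 0.37), did not pass. GADD45A, another arrest gene, read 8.46 and 7.72 in the combination and 8.55 and 8.46 in control (-0.41 ± 0.21). BAX, a pore-forming death gene, differed by 0.02 ± 0.38.

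**Figure D2:**
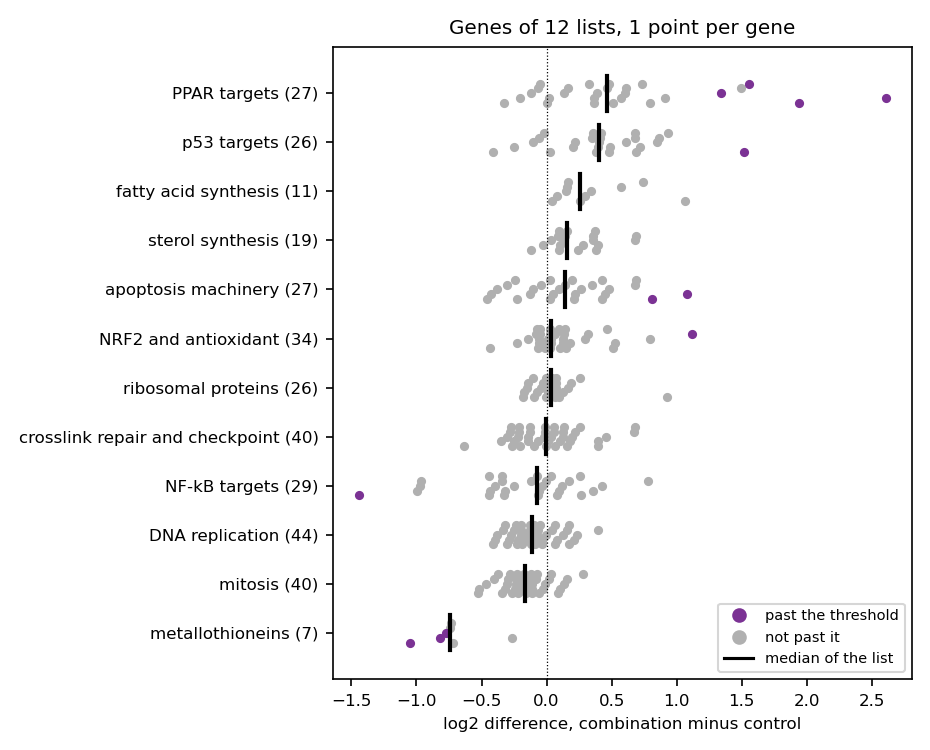
Difference in log2(signal + 16), combination minus control, of each tested gene in 12 lists, with the number of genes in brackets. Coloured points passed the threshold, grey points did not, and the black bar is the list's median, which runs from 0.46 for PPAR targets to -0.74 for metallothioneins.

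Genes of cell division were mostly lower, and none passed. Of 40 mitosis genes 33 were lower and 7 higher (median -0.17), and of 44 DNA replication genes 33 were lower and 11 higher (median -0.11), with 0 past the threshold in either list by limma. At an unadjusted p below 0.05, 7 mitosis and 3 replication genes were lower, against 4.32% of all genes, and 0 were higher in either list. CCNB2, a cyclin of the G2 to M transition, read 9.35 and 9.29 in the combination and 9.70 and 9.75 in control (-0.40 ± 0.11, adjusted p = 0.288, limma). The groups did not overlap, yet the difference was small. The spindle gene DLGAP5 (-0.46 ± 0.14) and the anaphase activator CDC20 (-0.32 ± 0.10) were lower by like amounts, while TOP2A (0.03 ± 0.13) and CDK1 (0.10 ± 0.17) were close to 0. Among cell cycle regulators outside these lists CCND3, a D cyclin, read -0.37 ± 0.13 and CDKN1B, the inhibitor p27, -0.29 ± 0.20. Neither passed.

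Crosslink repair and checkpoint genes showed no shift as a group, with 19 of 40 tested higher, 21 lower, a median of -0.01 and 0 past the threshold by limma. At an unadjusted p below 0.05, 3 were higher and 1 lower, against 4.44% and 4.32% of all genes. Within nucleotide excision repair, which removes many platinum adducts, 8 of 10 were higher with a median of 0.11, led by DDB2 and by XPC, a damage sensor (0.39 ± 0.14). ERCC1, whose nuclease cuts beside the adduct, read -0.29 ± 0.17. Efflux transporters of the ABC family were higher in 8 of 9 cases (median 0.18), and ABCG2, which pumps out many drugs, read 8.53 and 8.65 in the combination and 7.91 and 7.89 in control (0.69 ± 0.18, adjusted p = 0.207, limma).

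Metallothionein genes were lower as a family. Of 11 listed, 7 were tested, all 7 were lower by their brightest probe set, although MT1E was above 0 when 1 array was left out (0.01 without combination 2), and 3 passed as falls. By gene, 0.0998% of all genes tested passed as falls. The family median was -0.74, which is the value of MT3, a dim member near the filter level. MT3 read 5.61 and 4.56 in the combination and 5.58 and 6.07 in control, so its groups overlapped (adjusted p = 0.601, limma). Its direction adds little to the count of 7. Since the study itself drew attention to this family in the same samples, its direction is not independent evidence.  MT1X read 10.64 and 10.35 in the combination and 11.59 and 11.51 in control and fell by 1.05 ± 0.16 (adjusted p = 0.0287, limma). MT2A, the brightest member, read 12.34 and 12.06 in the combination and 13.01 and 12.94 in control and fell by 0.77 ± 0.12 (adjusted p = 0.0310, limma). MT1H read 9.68 and 9.82 in the combination and 10.71 and 10.42 in control and fell by 0.82 ± 0.12 (adjusted p = 0.0303, limma).

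In these 3 genes every combination array was below every control array, as in 21.6% of all genes tested. The other members, which did not pass, were MT3 (-0.74 ± 0.34), MT1G (-0.73 ± 0.15), MT1F (-0.72 ± 0.18) and MT1E (-0.26 ± 0.19). MT1G read 9.60 and 9.19 in the combination and 10.17 and 10.08 in control. Near-identical family transcripts can share 9 of the 10 probe sets tested, and these arrays cannot settle which members are lower. A dim MT1G probe set that is not of this shared kind, below the filter and not tested, read 5.72 and 5.29 in the combination and 4.50 and 4.12 in control, the opposite direction. Genes that carry metal into or out of cells did not move with the family. The factor that switches metallothioneins on, MTF1, differed by -0.05 ± 0.16, the zinc exporter SLC30A1 by 0.13 ± 0.17 and the copper importer SLC31A1, which also admits platinum drugs, by 0.22 ± 0.26, with 0 of 19 metal transport genes past the threshold by limma and 0 at an unadjusted p below 0.05.

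Metal ions act on this family through short metal response elements close to the transcription start. Near-identical transcripts can share the 3 called probe sets, so the promoters shown are those of the genes they are named for. Each is the 250 bases before the start in RefSeq (GRCh38.p14, plus strand, chr16:56608334-56608583 for MT2A, chr16:56682220-56682469 for MT1X and chr16:56669564-56669813 for MT1H). Capitals mark TGCACNC or TGCGCNC on either strand, where N is any base.
MT2A: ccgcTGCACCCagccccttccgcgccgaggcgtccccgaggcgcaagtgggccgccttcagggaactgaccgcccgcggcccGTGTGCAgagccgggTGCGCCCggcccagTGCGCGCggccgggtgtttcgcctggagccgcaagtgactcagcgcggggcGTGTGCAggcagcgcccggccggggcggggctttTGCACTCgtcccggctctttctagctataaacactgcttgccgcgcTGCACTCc
MT1X: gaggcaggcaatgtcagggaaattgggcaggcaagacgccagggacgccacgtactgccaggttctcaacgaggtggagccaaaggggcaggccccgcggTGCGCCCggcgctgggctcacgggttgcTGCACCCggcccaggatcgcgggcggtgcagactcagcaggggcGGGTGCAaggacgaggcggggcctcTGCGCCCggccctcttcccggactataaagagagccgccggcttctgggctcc
MT1H: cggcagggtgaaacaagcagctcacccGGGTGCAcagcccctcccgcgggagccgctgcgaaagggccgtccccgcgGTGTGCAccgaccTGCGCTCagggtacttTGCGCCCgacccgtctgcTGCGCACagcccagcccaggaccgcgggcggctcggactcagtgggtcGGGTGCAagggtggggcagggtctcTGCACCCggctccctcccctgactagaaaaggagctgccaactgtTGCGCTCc

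MT2A held 7 such matches, MT1X 4 and MT1H 8. The elements were found in 3 of the 3 tested metallothioneins with a promoter in the table, and 24.7% of 27305 promoters of this length hold at least 1 of the 2 forms. A match is a description of the sequence and not evidence of a bound factor.

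CXCL8, a chemokine that attracts neutrophils, read 6.07 and 6.37 in the combination and 7.69 and 7.63 in control and fell by 1.44 ± 0.22 (adjusted p = 0.0310, limma), the largest called fall. CXCL8 passed in 10 of 19 alternatives and in 2 of the 8 with 1 array left out. Related chemokines were lower without passing. CCL2, which attracts monocytes, read 6.46 and 6.91 in the combination and 7.59 and 7.76 in control (-0.996 ± 0.19, adjusted p = 0.068, limma). CXCL1 read 7.27 and 7.24 in the combination and 7.79 and 8.66 in control (-0.97 ± 0.26, adjusted p = 0.258, limma). The groups did not overlap in any of these 3 genes, and 21.6% of all genes tested also lay wholly below control. CXCL5 (-0.96 ± 0.32), whose probe sets differed in sign, and CXCL2 (-0.45 ± 0.16) were also lower without passing. Of 12 chemokine and cytokine genes tested 9 were lower and 3 higher, with a median of -0.28. Among them 1 passed, where 0.0998% of all genes passed as falls. IL6, a cytokine of inflammation, differed by -0.04 ± 0.19.

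The chemokines belong to a list of 29 NF-κB target genes, of which 19 were lower and 10 higher, with a median of -0.08, which was 0.005 with the arrays as deposited. The inhibitor gene NFKBIA, itself an NF-κB target, differed by -0.06 ± 0.13. ICAM1, an adhesion molecule, read 6.30 and 6.27 in the combination and 5.49 and 5.52 in control (0.78 ± 0.24, adjusted p = 0.359, limma), and its 2 probe sets differed in sign. The motif GGAATTTCC, a κB site on either strand, was present in 9 of the 23 promoters found for this list (0.428% of all promoters). Those 9 include CXCL8 and CXCL1, but also NFKBIA and ICAM1. A list of NF-κB targets can hold such sites by how it was chosen, and a match is no evidence of a bound factor. The promoters of the called chemokine gene and of CXCL1 show where it lies (RefSeq, GRCh38.p14, plus strand, chr4:73740319-73740568 and chr4:73869143-73869392, 250 bases before the start, motif in capitals).
CXCL8: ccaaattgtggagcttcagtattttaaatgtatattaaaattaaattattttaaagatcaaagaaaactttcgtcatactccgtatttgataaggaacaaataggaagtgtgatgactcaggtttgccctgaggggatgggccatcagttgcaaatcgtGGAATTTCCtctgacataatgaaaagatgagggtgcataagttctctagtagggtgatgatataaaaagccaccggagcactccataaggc
CXCL1: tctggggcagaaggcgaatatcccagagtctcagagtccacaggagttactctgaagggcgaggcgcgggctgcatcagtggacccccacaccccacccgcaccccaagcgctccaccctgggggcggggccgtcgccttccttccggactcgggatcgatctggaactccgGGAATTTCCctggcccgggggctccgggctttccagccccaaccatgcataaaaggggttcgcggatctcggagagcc

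Further falls passed in genes of other roles. CSGALNACT1, which starts chondroitin sulfate chains, read 8.65 and 8.61 in the combination and 9.61 and 9.94 in control and fell by 1.15 ± 0.14 (adjusted p = 0.00742, limma). RGS2, which switches off G protein signals, read 7.24 and 7.44 in the combination and 8.28 and 8.51 in control and fell by 1.05 ± 0.17 (adjusted p = 0.0332, limma). EFEMP1, a fibulin of the extracellular matrix, fell by 0.94 ± 0.16 (adjusted p = 0.0408), with both probe sets lower. In these 3 genes the combination arrays were wholly below the control arrays, as in 21.6% of all genes tested. TFAP2A, a transcription factor of epithelial development, fell by 0.93 ± 0.15 (adjusted p = 0.0340) on 1 probe set, while the other differed by 0.06 ± 0.16. Lower values that did not pass included KLF2 (-1.35 ± 0.35), a zinc finger factor, and AGR2 (-1.08 ± 0.26), a protein-folding enzyme of secretory cells. KLF2 read 4.51 and 5.65 in the combination and 6.33 and 6.52 in control. Its combination mean of 5.08 was below the lowest mean that passed the filter (5.38). KLF2 was thus tested only through the other groups. The lung and epithelial list held 11 higher and 7 lower of 18 tested, with a median of 0.26. KRT7 read 11.87 and 12.07 in the combination and 11.29 and 11.48 in control (0.59 ± 0.13, adjusted p = 0.101, limma).

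ERF, a repressor of the ETS family, read 8.23 and 8.21 in the combination, 7.80 and 8.09 after rosiglitazone, 8.41 and 8.30 after carboplatin, and 7.01 and 6.62 in control. It rose by 1.40 ± 0.18 in the combination (adjusted p = 0.00760, limma), beside single-drug differences from control of 1.13 ± 0.18 and 1.54 ± 0.18. All 6 arrays that had received a drug were above both control arrays. The single-drug values given here and next use the same 2 control arrays as the combination, so they are set side by side and not compared.

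**Figure D3:**
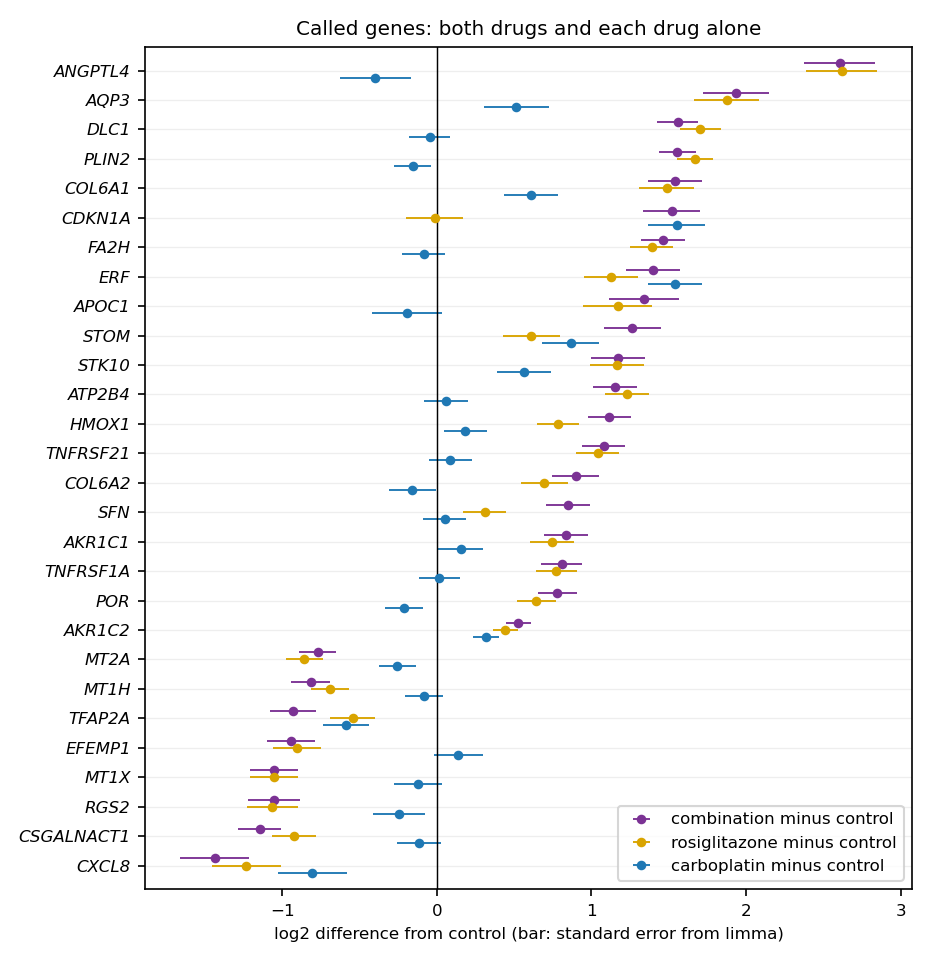
Difference from control in log2(signal + 16), with its standard error, of the 28 called genes in the combination, with rosiglitazone alone and with carboplatin alone. The 3 differences of a gene share the same 2 control arrays. CDKN1A shows 1.52 for the combination, -0.01 for rosiglitazone and 1.55 for carboplatin, and ANGPTL4 shows 2.61, 2.62 and -0.40.

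For ANGPTL4 the differences from control were 2.61 ± 0.23 for both drugs, 2.62 ± 0.23 for rosiglitazone and -0.40 ± 0.23 for carboplatin. For CDKN1A they were 1.52 ± 0.18, -0.01 ± 0.18 and 1.55 ± 0.18 in the same order. For GDF15 they were 0.87 ± 0.16, -0.53 ± 0.16 and 1.07 ± 0.16, and for MT1X -1.05 ± 0.16, -1.06 ± 0.16 and -0.12 ± 0.16. As lists, the median of PPAR targets was 0.46 for both drugs, 0.44 for rosiglitazone and -0.06 for carboplatin. That of p53 targets was 0.40, 0.01 and 0.43, and that of metallothioneins -0.74, -0.77 and -0.08.

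The combination was then tested directly against each drug alone. Against rosiglitazone alone 3 probe sets passed, all higher (0.0225% of those tested). CDKN1A was higher in the combination by 1.53 ± 0.18 (adjusted p = 0.0277, limma), the combination arrays reading 9.34 and 8.75 and the rosiglitazone arrays 7.48 and 7.55. GDF15 was higher by 1.39 ± 0.16 (adjusted p = 0.0277, limma), at 8.11 and 8.17 in the combination and 6.61 and 6.89 with rosiglitazone. The third is a probe set with no single gene symbol in the annotation used. With only the groups compared fitted, 0 of the 3 passed. Over 19 alternatives CDKN1A passed in 9 and GDF15 in 7. The direct difference of ANGPTL4 was -0.01, with a 95% interval of -0.52 to 0.49, and that of MT1X was 0.00, with an interval of -0.34 to 0.35.

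Against carboplatin alone 21 probe sets passed (0.158%), 19 higher (0.143%) and 2 lower (0.0150%). ANGPTL4 was higher in the combination by 3.01 ± 0.23 (adjusted p = 0.000293, limma), with carboplatin arrays at 6.18 and 6.36. APOC1 was higher by 1.53 ± 0.23 and FA2H by 1.55 ± 0.14. For PLIN2 the excess was 1.71 ± 0.12 and for DLC1 it was 1.60 ± 0.13. EFEMP1 was lower by a log2 difference of -1.08 ± 0.16 and CSGALNACT1 of -1.03 ± 0.14. Over 19 alternatives ANGPTL4, PLIN2, DLC1 and FA2H passed in 19, APOC1 in 11, CSGALNACT1 in 10 and EFEMP1 in 9. CDKN1A differed by -0.03, with a 95% interval of -0.44 to 0.37. MT1X was lower by -0.93 ± 0.16 but just missed the threshold (adjusted p = 0.0509, limma).

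**Figure D4:**
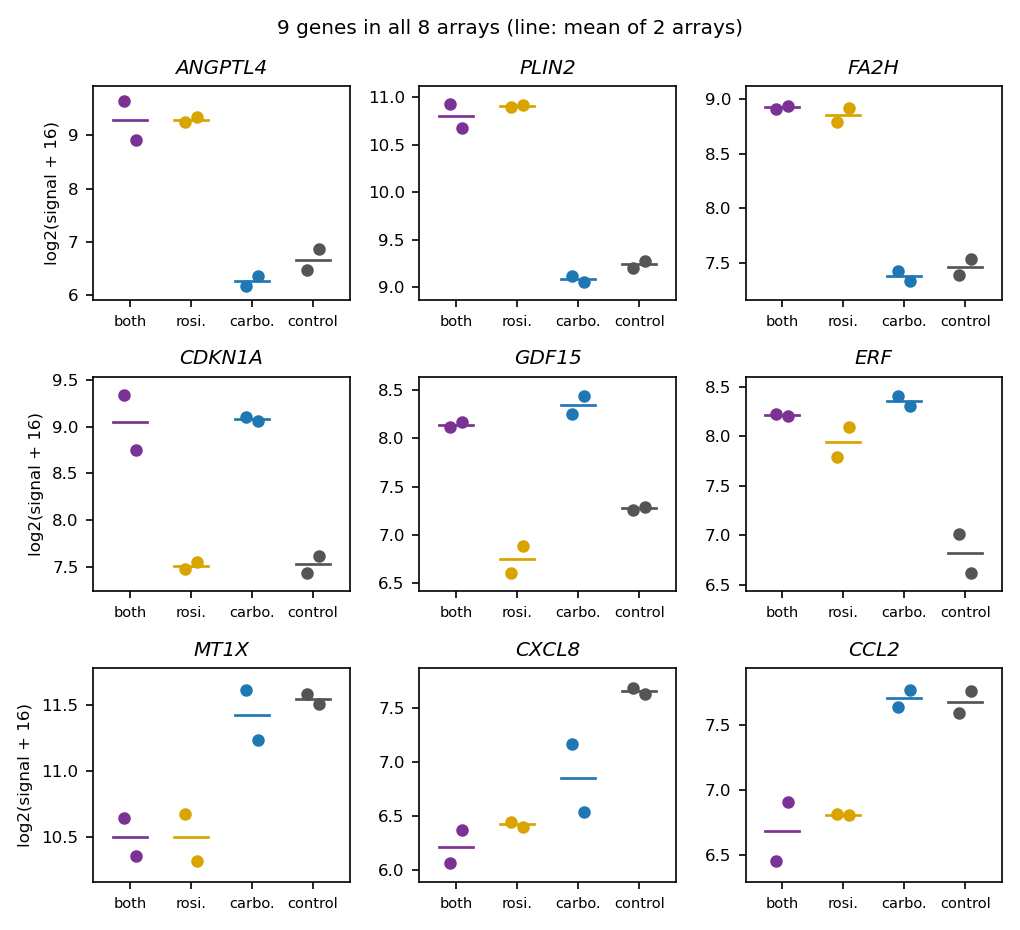
Normalized log2(signal + 16) of 9 genes in all 8 arrays, with the mean of each group of 2 as a line. In ANGPTL4, PLIN2 and FA2H the combination arrays lie beside the rosiglitazone arrays, in CDKN1A and GDF15 beside the carboplatin arrays.

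Whether both drugs together differed from the sum of their single differences was tested as an interaction on the log2 scale. It passed for 0 of 13329 probe sets by limma (0.00%), and at an unadjusted p below 0.05 it was positive for 348 and negative for 445 (2.61% and 3.34%). With the arrays as deposited 3 probe sets passed, all negative. ERF had an interaction of -1.26 ± 0.25 (95% interval -1.81 to -0.72, adjusted p = 0.819, limma), so the combination was below the sum of the single differences, without passing. For ANGPTL4 the interaction was 0.39, with an interval of -0.33 to 1.10. For CDKN1A it was -0.02 (-0.59 to 0.56), and for MT1X 0.12 (-0.36 to 0.61). Each interval holds the interaction sizes compatible with the data. With 2 arrays per group even interactions larger than that of ERF did not pass. Among probe sets with 1 gene symbol, PLCG1 (-2.10 ± 0.39) had the smallest limma p-value of the negative interactions. CDK10 (1.77 ± 0.34) had the smallest of the positive ones. The carboplatin mean of CDK10, 5.07, was below the lowest mean that passed the filter (5.38).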

How the data were processed

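RNA for 8 Affymetrix arrays was primed with oligo-dT and labelled with biotin by in vitro transcription, as the labels' protocols state. The authors deposited an intensity, called signal, for each probe set, with linear spacing. How these intensities were computed, background-corrected and scaled is "not given in the sources used here". Of 22283 probe sets, the 68 AFFX controls were left out. Signals were taken as log2(signal + 16) and quantile normalized over the 8 arrays, and probe sets with a mean at or above the 40th percentile (13329) were tested.

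R 4.3.3 and limma 3.58.1 were used with 1 mean per group over all 8 arrays, eBayes with an intensity trend, two-sided tests and Benjamini-Hochberg adjustment over all probe sets tested, at a threshold of 0.05. The fit had 4 residual and 7.10 prior degrees of freedom, and the procedure was tested on simulated data. With 2 arrays per group the number of arrays limits the precision. No 2 arrays of a group held identical values.

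Of the probe sets, 19071 had 1 gene symbol in GEO's platform annotation, 1043 several and 2169 none, and 19059 of the symbols were found in RefSeq. A gene is represented by its brightest probe set, except that a called gene is given by the probe set that passed. Every called probe set with 1 symbol and all tested metallothioneins were named. Other genes were drawn from those next to the threshold and from the largest or smallest-p genes of the other contrasts. The members of smallest p in each list, at most 4, were a further source. Not every gene of these groups is named in the text. Further list members give values by role. The members and gene lists were chosen with earlier results of these data known. Alternatives varied the scaling, pseudocount (1 or 64), filter, variance prior, arrays fitted, replicate block and single arrays. Array brightness as a covariate and a crossed pairing were chosen after seeing the data.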

Additional observations from a re-analysis of the deposited data

How the results depend on the processing

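The 30 calls of the combination against control became 16 as deposited, 15 after median scaling, 12 unfiltered, 50 with a filter at the 60th percentile and 5 without the intensity trend. Leaving out 1 array gave 9 to 31, with 10 and 12 when control 1 or control 2 was left out, and 11 and 9 when combination 1 or combination 2 was. Against rosiglitazone the 3 calls became 1 with the deposited scaling, and 0 with no filter, without the intensity trend, with the replicate block and with only the groups compared, and leaving out 1 array gave 0 to 3 (1 without combination 2, and 0 without combination 1 or without any 1 control or rosiglitazone array). Against carboplatin the 21 calls became 9 as deposited, 8 after median scaling, 6 unfiltered, 5 without the intensity trend and 5 with only the groups compared, and leaving out 1 array gave 4 to 22 (8 without rosiglitazone 2, 4 without carboplatin 1, 6 without carboplatin 2, 5 without combination 1 and 7 without combination 2). The interaction had 3 calls with the deposited scaling, all negative, and 0 under the other alternatives run; fitting only the groups compared was not run for it, since it needs all 8 arrays. MT1E changed sign without combination 2, its values with 1 array left out running from -0.54 to 0.0055. The cause of these changes was not tested.

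The labels do not say that replicate numbers pair these arrays. The correlation of deviations lay between -0.110 and 0.253 over the 6 pairs of groups. It was -0.110 to -0.063 for pairs with control and 0.081 to 0.253 for pairs without it. These values cannot settle whether the arrays were paired. With the replicate block 33 probe sets passed against control (26 shared with the 30) and 17 against carboplatin. The crossed pairing gave 48, 3 and 27 calls against control, rosiglitazone and carboplatin. All 28 named genes kept their direction under every alternative run. The median of PPAR targets ranged from 0.36 to 0.54, that of p53 targets from 0.31 to 0.50 and that of metallothioneins from -0.93 to -0.53.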
